A study of Mus with 3 samples.

Results

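The variable (V) and joining (J) segments of the T cell receptor (TCR) beta chain were counted in T cells from tumors of MC38, a mouse colon cancer line, taken on day 16. All V and J names on assembled beta chain (TRB) sequences that carried a clonotype number were used, with the sequence of most unique molecular identifiers (UMIs) for each cell, and no measured value chose the segments. They came to 33 segments, 21 V and 12 J, after the deposited names TRBV13-2 (27 cells) and TRBV12-2+TRBV13-2 (180 cells) were joined as TRBV13-2. WT and RARα-TG cells used all 33, and RARα-KO cells used 32, with no cell carrying TRBV30. The segments were read from 3287 cells, 1241 WT, 1431 RARα-KO and 615 RARα-TG, which formed 527, 380 and 472 clonotypes, or 1379 in all. A clonotype is a set of cells that share their receptor sequences. Most clonotypes were a single cell, 419 of 527 for WT, 255 of 380 for RARα-KO and 407 of 472 for RARα-TG cells.

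RARα, encoded by Rara, is a nuclear receptor for retinoic acid. RARα-KO mice carried a Cre driven by the distal Lck promoter (dLck-Cre), which acts in T cells, and loxP-flanked Rara, so that a part of the gene was deleted in T cells. RARα-TG mice expressed Rara in T cells from the CD2 promoter. All 3 genotypes carried MC38 tumors, and the sort took 30000 T cells positive for CD45.2 and CD3, with 10000 cells of any kind, from each. Cells of each genotype received an antibody hashtag of their own and were pooled into 1 library, so each genotype was 1 sample. The study used C57BL/6 and dLck-Cre mice as WT controls, and the sources used here state neither which of them gave these cells nor the number of mice. A difference between genotypes cannot be told apart from one between mice. The labels also name spleen and naive CD8 T cells activated in culture, which does not match the tumor protocol followed here. No p-value is given. Shares carry exact Clopper-Pearson 95% intervals, which cover counting error only, and shares are called apart where these intervals did not overlap. Segments were compared where both groups together held 10 or more clonotypes.

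In cells with a TRB sequence Rara stood at 81.9 CPM (UMIs scaled to a common total per group, interval 75.6 to 88.7) in WT cells, at 77.5 (71.8 to 83.6) with the deletion and at 238 (220 to 257) with the transgene. RARα-TG was above the others, and WT and RARα-KO overlapped. The deletion removes only a part of Rara, so the count does not check the RARα-KO label.

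TCR beta genes are assembled in developing T cells by joining 1 V, 1 diversity (D) and 1 J segment. At each joint bases are trimmed and further bases are added without a template. The joint lies in the third complementarity-determining region (CDR3), the part of the chain that faces the presented peptide, while the other loops encoded by the V segment mainly face the MHC molecule. J segments stand in a TRBJ1 cluster before the constant gene TRBC1 and a TRBJ2 cluster before TRBC2. CD8 T cells are the cytotoxic lineage restricted by MHC class I, CD4 T cells are restricted by MHC class II, and Foxp3 is the defining transcription factor of regulatory T cells.

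The largest clonotypes are shown by the bases of their CDR3 because each of them adds many cells to the share of its segments when cells rather than clonotypes are counted. Capitals mark bases outside the stretches that the deposited annotation assigned to the V and J segments. These stretches may hold mismatched, added or D bases, so a lower case base need not be encoded by its V or J segment.
WT clone 1: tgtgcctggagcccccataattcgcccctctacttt
WT clone 2: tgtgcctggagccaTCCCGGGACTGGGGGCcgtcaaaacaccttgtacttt
WT clone 3: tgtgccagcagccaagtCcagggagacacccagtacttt
RARα-KO clone 1: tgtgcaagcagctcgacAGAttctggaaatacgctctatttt
RARα-KO clone 2: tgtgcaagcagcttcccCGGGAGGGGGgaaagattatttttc
RARα-KO clone 3: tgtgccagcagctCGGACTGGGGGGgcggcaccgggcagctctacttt
RARα-TG clone 1: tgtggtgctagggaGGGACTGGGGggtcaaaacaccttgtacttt
RARα-TG clone 2: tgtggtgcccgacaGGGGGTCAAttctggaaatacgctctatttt
RARα-TG clone 3: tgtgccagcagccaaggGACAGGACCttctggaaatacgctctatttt

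The first 2 WT clonotypes both used TRBV31, with TRBJ1-6 and TRBJ2-4, and each held 62 cells, or 5.00% of WT cells. WT clone 1 had a CDR3 of 12 residues, in which the V and J matches of 14 and 25 bases overlapped within 36 bases. Its count of bases between V and J was therefore set to 0, while WT clone 2 had 16 in a CDR3 of 17. WT clone 3 joined TRBV5 to TRBJ2-5 in 42 cells. In RARα-KO the first clonotype joined TRBV16 to TRBJ1-3 in 122 cells (8.53% of RARα-KO cells), the second joined TRBV16 to TRBJ1-4 in 85 cells, and the third joined TRBV3 to TRBJ2-2 in 79 cells. RARα-TG clonotypes were smaller, with 19 cells for TRBV20 and TRBJ2-4, 18 for TRBV20 and TRBJ1-3, and 17 for TRBV5 and TRBJ1-3. The WT and RARα-KO clonotypes were CD8 cells wherever they fell in a gate, for instance 116 of 122 cells of RARα-KO clone 1 with the other 6 in no gate, while the 3 RARα-TG clonotypes held 0 CD8 cells. Of their cells, 15 of 19, 13 of 18 and 9 of 17 had a Foxp3 UMI.

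The V names were checked against the gene expression library of the same cells, which counts the Trbv genes independently of the assembled sequences. The Trbv gene with most UMIs was that of the V name in 3126 of 3209 cells with a Trbv UMI (97.4%, interval 96.8 to 97.9). In this count Trbv4 was taken for TRBV10, because 70 of 71 cells named TRBV10 had Trbv4 as the leading gene and Trbv10, a pseudogene in the RefSeq annotation, had 0 UMIs. By name alone the share was 3056 of 3209 (95.2%). Among named segments the weakest check was TRBV5, whose gene had a UMI in 82.5% of the cells that carried it. Trbv13-2 had a UMI in 8.57% of cells with another V, above the 1.92% for Trbv16 and the 0.90% for Trbv3. J names were checked by the constant gene, and 1287 sequences joined TRBJ1 to TRBC1, 1982 joined TRBJ2 to TRBC2, 0 were mismatched and 18 had no constant gene. D calls, where made, followed the gene order as well, with TRBD2, which lies behind the TRBJ1 cluster, called in 2 of 525 TRBJ1 clonotypes and in 129 of 854 TRBJ2 clonotypes. No D segment was called in 404 TRBJ1 clonotypes (77.0%) and 625 TRBJ2 clonotypes (73.2%).

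The segments lie on chromosome 6 of the mouse genome (GRCm38). RefSeq places Trbv1 at chr6:40891296-40891885, Trbv3 at chr6:41048394-41048824, Trbv5 at chr6:41062359-41062803, Trbv13-2 at chr6:41121396-41121832, Trbv16 at chr6:41151791-41152230, Trbv19 at chr6:41178589-41179048 and Trbv26 at chr6:41227525-41227913. The J segments run from Trbj1-1 at chr6:41533864-41533911 to Trbj2-7 at chr6:41543810-41543856. Trbv31 is the exception to the order, at chr6:41557693-41558371 beyond both constant genes, and is known to join by inversion. Of the annotated J segments, Trbj1-7 and the pseudogene Trbj2-6 had no sequence in these cells.

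Over all 1379 clonotypes usage was uneven. TRBV13-2 was carried by 152 clonotypes (11.02%, interval 9.42 to 12.8), TRBV3 by 149 (10.8%), TRBV16 by 140 (10.2%), and TRBV5 and TRBV19 by 101 each (7.32%). The first 3 overlapped in their intervals, and so their order is not fixed by these counts. TRBV23 with 9 clonotypes and TRBV30 with 4 were the least used. TRBV29, which RefSeq lists as a pseudogene, was carried by 45 clonotypes with productive chains. When cells were counted instead, TRBV16 stood at 793 of 3287 cells (24.1%) and TRBV13-2 at 207 (6.30%). Among J segments TRBJ2-7 led with 266 clonotypes (19.3%, interval 17.2 to 21.5), followed by TRBJ1-1 with 173 (12.5%), TRBJ2-5 with 169 (12.3%) and TRBJ2-1 with 152 (11.02%), and TRBJ1-5 was least used with 44 (3.19%). The TRBJ2 cluster held 61.9% of clonotypes.

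V and J were joined in 218 of 252 possible pairs. Of 48 pairs with 10 or more clonotypes, 4 (8.33%) used the J segment at a share apart from that of all other V segments. Pairs entered by their own count, which favors pairs used often, so that the direction of these 4 is set by the selection and they are given as a description. TRBJ2-7 was used by 45 clonotypes of TRBV13-2 (29.6%, against 18.0% with other V segments). TRBJ2-4 was used by 14 of TRBV20 (23.7% against 8.33%), TRBJ2-1 by 10 of TRBV10 (26.3% against 10.6%) and TRBJ1-5 by 10 of TRBV5 (9.90% against 2.66%). The 44 other pairs of that size overlapped. Smaller pairs were picked after their values were seen. Among them TRBV1 with TRBJ2-7 lay below, with 5 clonotypes (6.94% against 19.97%). TRBV12-2 with TRBJ1-4 (15.7% against 5.42%) and TRBV31 with TRBJ1-6 (12.1% against 3.43%) lay above, with 8 clonotypes each.

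Lineages were set by UMIs of the marker genes. CD8 cells had a Cd8a UMI and no Cd4 UMI, and numbered 776 cells of 192 clonotypes for WT, 982 of 167 for RARα-KO and 95 of 89 for RARα-TG mice. CD4 Foxp3-negative cells had a Cd4 UMI, no Cd8a, Cd8b1 or Foxp3 UMI, and numbered 85 cells of 57 clonotypes, 150 of 83 and 92 of 71. Foxp3-positive cells had Cd4 and Foxp3 UMIs, and numbered 93 cells of 76 clonotypes, 73 of 56 and 130 of 96. A further 811 cells fell in no gate, most of them without a Cd8a or Cd4 UMI. Among these ungated cells a Foxp3 UMI was seen in 142 RARα-TG cells, 86 WT cells and 44 RARα-KO cells. For RARα-TG this exceeded the 130 cells in the Foxp3-positive gate, while for the other genotypes it stayed below the gated numbers. The Foxp3-positive shares therefore leave out many cells with a Foxp3 UMI. Cells with a UMI of a T cell marker made up 98.9% to 100% of the 9 gated groups. In CD8 cells NK markers had a UMI in 32.9% of RARα-KO cells, between the 50.4% of WT and the 13.7% of RARα-TG cells, and myeloid markers in 11.8%, against 8.38% and 8.42%. The regulatory markers Foxp3, Il2ra, Ikzf2 and Ctla4 together stood at 904 CPM in CD4 Foxp3-negative cells of all genotypes. They stood at 461 CPM in CD8 and 4142 CPM in Foxp3-positive cells. At least 1 of them had a UMI in 79.2% of CD4 Foxp3-negative and 77.8% of CD8 cells.

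Between CD8 and CD4 Foxp3-negative clonotypes of all genotypes, 4 of 19 V segments (21.1%) were apart, and between CD8 and Foxp3-positive clonotypes 5 of 19 (26.3%). CD4 Foxp3-negative and Foxp3-positive clonotypes were apart for 0 of 16 (0%). A regulatory cell whose Foxp3 UMI was missed falls in the Foxp3-negative gate. RARα-TG clone 1, for instance, had 3 cells there and 14 in the Foxp3-positive gate. The part of such mixing in this count was not tested. TRBV16 and TRBV12-1 were higher in CD8, while TRBV3 and TRBV26 were lower in CD8, each against both CD4 groups. TRBV13-2 was lower in CD8 than in Foxp3-positive clonotypes. CD8 and CD4 T cells are known to be selected on different classes of MHC molecule.

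**Figure D1:**
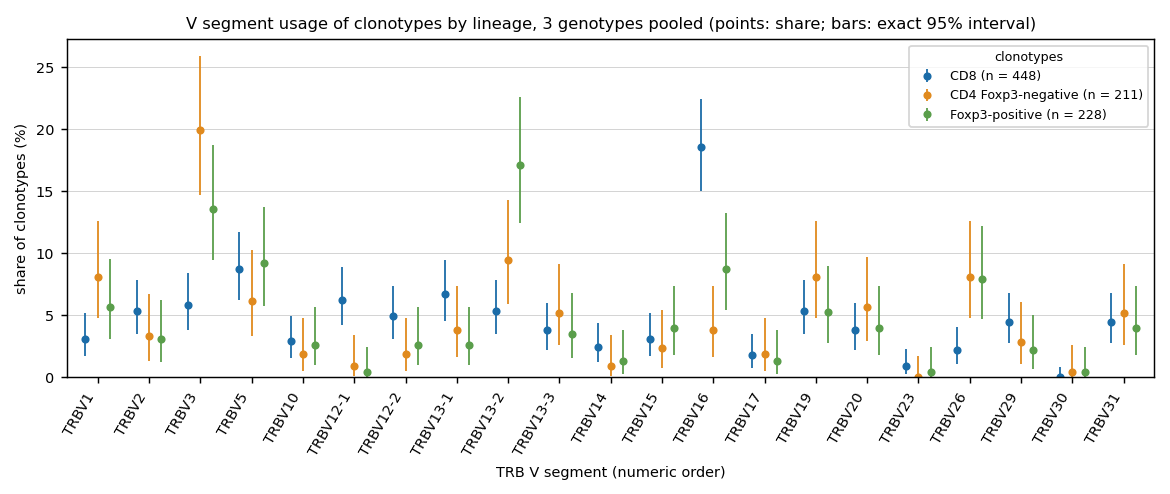
Share of clonotypes (%, y axis) that used each TRB V segment (x axis) in CD8, CD4 Foxp3-negative and Foxp3-positive clonotypes of all genotypes, with points for shares and bars for exact 95% intervals. TRBV16 stood at 18.5% in CD8 against 3.79% and 8.77% in the CD4 groups, and TRBV3 at 5.80% against 19.9% and 13.6%.

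TRBV16 was carried by 83 of 448 CD8 clonotypes (18.5%, interval 15.04 to 22.4), by 8 of 211 CD4 Foxp3-negative clonotypes (3.79%, 1.65 to 7.33) and by 20 of 228 Foxp3-positive clonotypes (8.77%, 5.44 to 13.2). By genotype the CD8 shares were 13.02% of WT clonotypes, 32.9% of RARα-KO and 3.37% of RARα-TG clonotypes, and the CD4 Foxp3-negative shares were 1.75%, 6.02% and 2.82%. CD8 was therefore above CD4 Foxp3-negative in 3 of 3 genotypes, but by 0.55 percentage points in RARα-TG. Against Foxp3-positive clonotypes, at 13.2%, 12.5% and 3.12%, CD8 was higher in 2 of 3 genotypes, and the shares overlapped without RARα-KO (9.96% and 7.56%) and without RARα-TG (22.3% and 12.9%).

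TRBV12-1 was carried by 28 CD8 clonotypes (6.25%), 2 CD4 Foxp3-negative clonotypes (0.95%) and 1 Foxp3-positive clonotype (0.44%). Its CD8 shares were 6.25% (WT), 3.59% (RARα-KO) and 11.2% (RARα-TG), each above both CD4 groups of the same genotype. Against CD4 Foxp3-negative the intervals overlapped without RARα-TG (5.01% and 0.71%) and without WT (6.25% and 1.30%). TRBV3 was carried by 26 CD8 clonotypes (5.80%, interval 3.83 to 8.39), 42 CD4 Foxp3-negative (19.9%, 14.7 to 25.9) and 31 Foxp3-positive clonotypes (13.6%, 9.43 to 18.7). CD8 was below CD4 Foxp3-negative in each genotype, at 3.65% against 17.5% in WT, 8.98% against 20.5% in RARα-KO and 4.49% against 21.1% in RARα-TG. Against Foxp3-positive clonotypes TRBV3 was lower in CD8 in WT and RARα-TG but not in RARα-KO, at 8.98% against 5.36%. Over the other genotypes together this pair overlapped without RARα-TG (6.13% and 12.9%) and without WT (7.42% and 11.2%).

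TRBV13-2 was carried by 24 CD8 clonotypes (5.36%, interval 3.46 to 7.87) and 39 Foxp3-positive clonotypes (17.1%, 12.5 to 22.6), and was lower in CD8 in 3 of 3 genotypes, at 5.73% against 19.7%, 4.19% against 16.1% and 6.74% against 15.6%. TRBV26 was carried by 10 CD8 (2.23%), 17 CD4 Foxp3-negative (8.06%) and 18 Foxp3-positive clonotypes (7.89%), again with the same direction in 3 of 3 genotypes. Its share was no longer apart from CD4 Foxp3-negative with any 1 genotype left out (2.49% and 9.38% without RARα-KO, 2.23% and 7.14% without RARα-TG, 1.95% and 7.79% without WT), nor from Foxp3-positive without RARα-KO (2.49% and 6.395%) or without RARα-TG (2.23% and 8.33%). Within single genotypes fewer segments were apart. In WT they were TRBV3 against both CD4 groups (1 of 13 segments, 7.69%, against CD4 Foxp3-negative) and TRBV13-2 against Foxp3-positive (with TRBV3 2 of 11, 18.2%). In RARα-TG only TRBV3 was apart among the comparisons made, from CD4 Foxp3-negative (1 of 5, 20%). In RARα-KO TRBV16 was apart from both CD4 groups, TRBV26 from Foxp3-positive (2 of 8, 25%) and TRBV1 from CD4 Foxp3-negative, at 3 of 167 CD8 clonotypes (1.80%) against 10 of 83 (12.05%, with TRBV16 2 of 9, 22.2%). Shares within a lineage sum to the whole, so a higher share of a segment and lower shares of the others cannot be told apart.

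Comparing genotypes within a lineage asks whether T cells with altered RARα used other receptors. In CD8 clonotypes TRBV16 was the segment that set RARα-KO apart, with 55 of 167 clonotypes (32.9%, interval 25.9 to 40.6) against 25 of 192 in WT (13.02%, 8.61 to 18.6) and 3 of 89 in RARα-TG (3.37%, 0.70 to 9.54). It was 1 of 13 segments compared with WT (7.69%) and 1 of 11 compared with RARα-TG (9.09%). Between RARα-TG and WT 0 of 16 were apart (0%), TRBV16 among them. Across all lineages and pairs of genotypes 2 of 73 comparisons (2.74%) were apart, with 0 of 16 in CD4 Foxp3-negative and 0 of 17 in Foxp3-positive clonotypes. A beta chain may appear under several clonotype numbers, for instance with different alpha chains. Counted as distinct V, J and CDR3 sequences, TRBV16 made up 39 of 139 in RARα-KO CD8 cells (28.1%, 20.8 to 36.3), 22 of 175 in WT (12.6%, 8.05 to 18.4) and 3 of 85 in RARα-TG (3.53%, 0.73 to 9.97), and the pairs remained apart.

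Among CD8 clonotypes that held 1 cell in their whole genotype, cells outside the CD8 gate included, TRBV16 stood at 23.6% of 89 in RARα-KO and 15.6% of 122 in WT, and the intervals overlapped. TRB sequences of CD8 cells had a median of 15 UMIs in RARα-KO, against 11 for WT and 9 for RARα-TG mice, whose part in the result was not tested. Usage was less even in RARα-KO, where the CD8 clonotypes corresponded to 11.6 equally used V segments, against 16.6 in WT and 18.2 in RARα-TG.

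**Figure D2:**
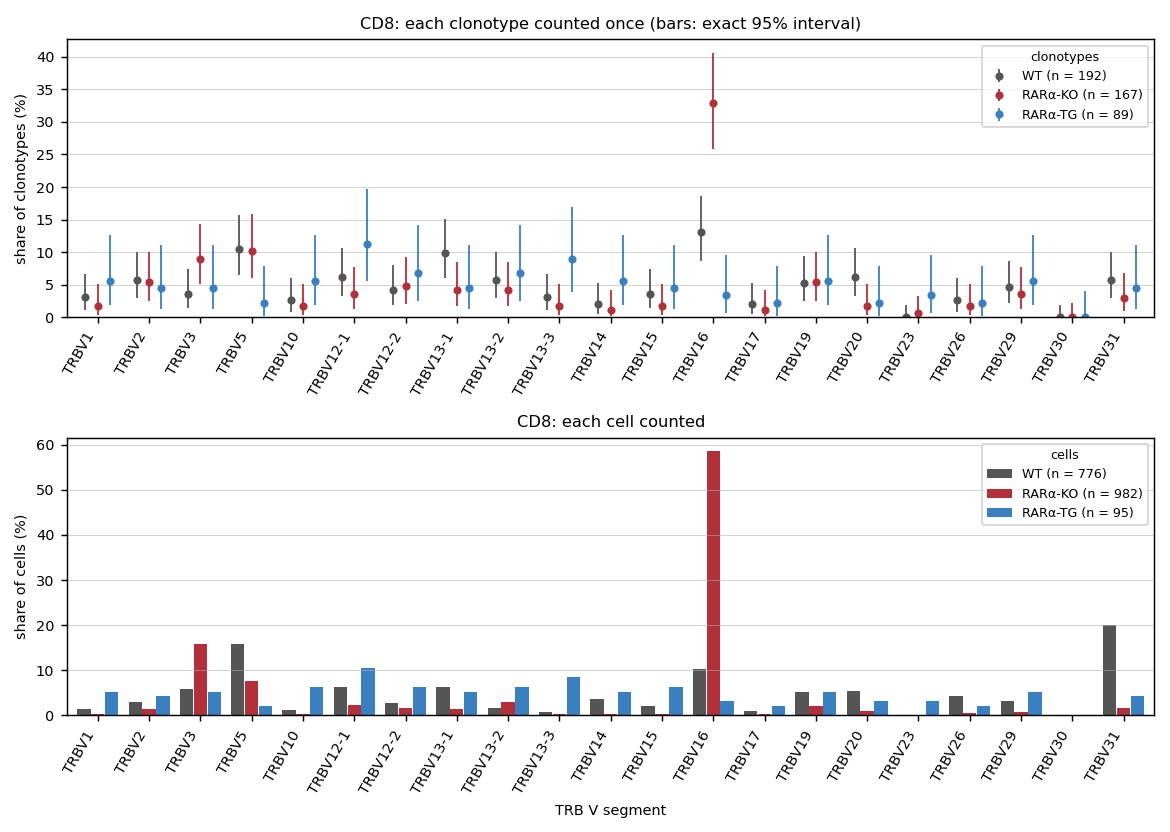
TRB V segment (x axis) shares (%, y axis) in CD8 T cells of each genotype, counted over clonotypes with exact 95% intervals and over cells without intervals, since cells of a clonotype share their receptor. TRBV16 in RARα-KO reached 32.9% of clonotypes and 58.7% of cells, and TRBV31 in WT 5.73% of clonotypes and 19.97% of cells.

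Counted over cells, the CD8 compartments were each led by another segment. TRBV16 was carried by 576 of 982 RARα-KO CD8 cells (58.7%), followed by TRBV3 with 155 (15.8%). The largest TRBV16 clonotypes held 116, 76 and 69 of the CD8 cells, and without the 3 largest CD8 clonotypes of RARα-KO the TRBV16 share was 53.4% of 719 cells. WT CD8 cells were led by TRBV31 with 155 of 776 cells (19.97%) in only 11 clonotypes, 2 of which held 54 cells each, and without the 3 largest WT clonotypes the share was 7.50%. TRBV5 came next with 123 WT cells (15.9%), and TRBV16 was carried by 80 (10.3%). RARα-TG CD8 cells were few, and TRBV12-1 led with 10 of 95 (10.5%), with TRBV16 in 3 (3.16%). In terms of equally used V segments the CD8 cells of RARα-KO corresponded to 4.77, those of WT to 13.2 and those of RARα-TG to 18.4. Outside CD8 some cell shares also rested on few clonotypes. TRBV12-2 was carried by 14 of 85 WT CD4 Foxp3-negative cells (16.5%), all of 1 clonotype, and TRBV20 by 21 of 130 RARα-TG Foxp3-positive cells (16.2%) in 5 clonotypes, the largest of 14 cells.

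Whether clonotypes of a V segment held 2 or more cells was compared with the other V segments of the same CD8 compartment. In RARα-KO 34 of 55 TRBV16 clonotypes did (61.8%, interval 47.7 to 74.6) against 41 of 112 with another V (36.6%, 27.7 to 46.2), the 1 segment of 3 compared that was apart (33.3%). In WT 6 of 25 TRBV16 clonotypes did (24.0%) against 62 of 167 (37.1%), and 0 of 9 segments were apart (0%).

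J segments were far less divided. Between lineages over all genotypes 0 of 36 comparisons were apart (0%), and between genotypes within lineages 0 of 73 (0%). The TRBJ2 cluster held 66.3% of CD8, 64.5% of CD4 Foxp3-negative and 59.6% of Foxp3-positive clonotypes. By genotype the TRBJ1 cluster held 42.8% of RARα-TG clonotypes (interval 38.3 to 47.4), 37.0% of WT (32.9 to 41.3) and 33.7% of RARα-KO clonotypes (28.9 to 38.7), with overlap in each pair. Within RARα-TG TRBJ2-1 was carried by 18 of 89 CD8 clonotypes (20.2%, 12.4 to 30.1) and 2 of 71 CD4 Foxp3-negative clonotypes (2.82%, 0.34 to 9.81), 1 of 7 J segments compared there (14.3%). It was the only J segment apart between lineages within a genotype. The other pairs of lineages had 0 apart, of 8 and 8 segments in RARα-TG, 11, 11 and 5 in WT, and 9, 11 and 6 in RARα-KO.

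**Figure D3:**
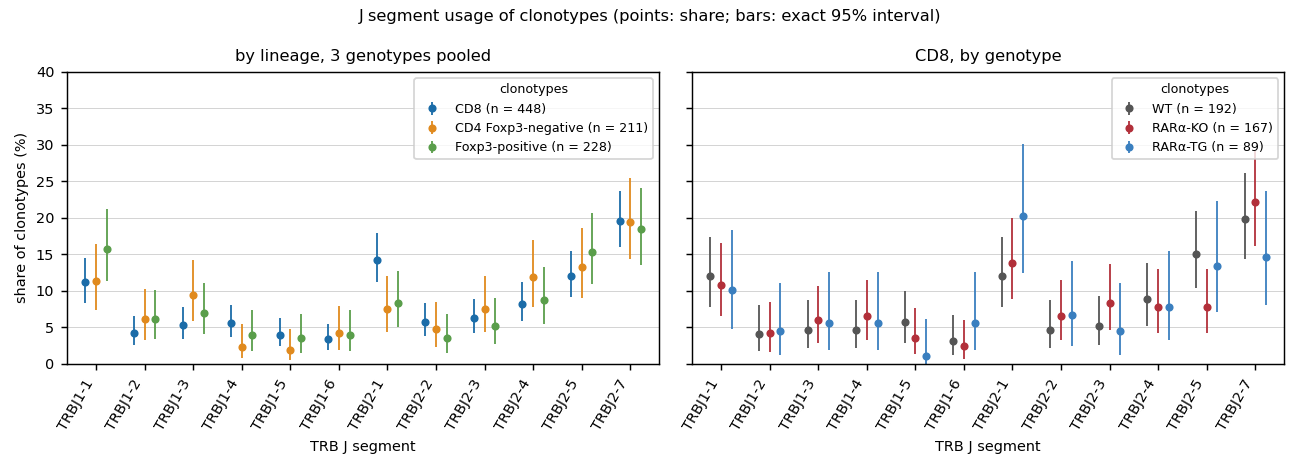
Share of clonotypes (%, y axis) for each TRB J segment (x axis), by lineage over all genotypes and by genotype in CD8 clonotypes, with exact 95% intervals as bars. The intervals overlapped for all segments compared in both panels, and over all clonotypes TRBJ2-7 (19.3%) was used most and TRBJ1-5 (3.19%) least.

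The beta CDR3, counted from the conserved cysteine to the conserved phenylalanine, had a mean of 13.9 ± 1.37 residues (SD, n = 1379 clonotypes) and ranged from 9 to 18, with 73.0% of clonotypes at 13 to 15. Segments differed in mean length, and their part in this spread was not tested. Mean lengths ran from 13.2 ± 1.37 (TRBV26) to 14.6 ± 1.36 (TRBV2) among V segments and from 13.2 ± 1.33 (TRBJ1-1) to 14.7 ± 1.30 (TRBJ2-2) among J segments. On average 16.1 ± 2.07 bases of the CDR3 lay in the stretch annotated as V, 20.04 ± 2.95 in that annotated as J, and 5.83 ± 4.24 between them. In 13.9% of clonotypes no base lay between, which includes stretches that overlapped. The stretches may hold mismatched, added or D bases, so this share does not count joints without added bases.

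By lineage the mean length was 14.1 ± 1.41 residues in CD8 (SD, n = 448), 13.9 ± 1.20 in CD4 Foxp3-negative (n = 211) and 13.6 ± 1.40 in Foxp3-positive clonotypes (n = 228). The CD8 mean was 0.50 residues above the Foxp3-positive mean, and between 0.38 and 0.69 above it in 14 alternative counts, with no test of the difference. The gap was uneven among genotypes, smallest for WT at 0.14 residues, then 0.63 (RARα-TG), and widest for RARα-KO at 0.93. The smallest and the widest lie outside the range of the alternative counts, which therefore does not describe single genotypes. Joints with no base between the stretches annotated as V and J were found in 46 of 448 CD8 clonotypes (10.3%, interval 7.62 to 13.5). In CD4 Foxp3-negative clonotypes they were 30 of 211 (14.2%, 9.80 to 19.7), and in Foxp3-positive clonotypes 48 of 228 (21.1%, 15.9 to 26.9). CD8 and Foxp3-positive were apart in this share, 1 of 3 pairs of lineages (33.3%). A CDR3 of 12 or fewer residues was apart in 0 of 3 pairs (0%).

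Foxp3-positive clonotypes varied among genotypes. Their mean length was 13.2 ± 1.14 residues in RARα-KO (n = 56), against 14.0 ± 1.31 for WT (n = 76) and 13.6 ± 1.54 for RARα-TG (n = 96). Joints with no base between V and J numbered 18 in RARα-KO (32.1%, interval 20.3 to 45.96), against 10 for WT (13.2%, 6.49 to 22.9) and 20 for RARα-TG (20.8%, 13.2 to 30.3), and these intervals overlapped in every pair. Between genotypes within lineages 0 of 9 comparisons were apart in this share and 0 of 9 in the share of short CDR3 (0% each). Within RARα-KO the share was apart between Foxp3-positive and CD8 clonotypes, at 32.1% and 10.8%, and without RARα-KO no pair of lineages was apart. Over all 1379 clonotypes the J segments that these Foxp3-positive clonotypes used had an average length of 13.72 residues for RARα-KO, the lowest of the 9 gated groups, 13.80 for WT and 13.89 for RARα-TG. Their V segments had averages of 13.84, 13.94 and 13.84, and the part of segment usage in the lengths was not tested.

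**Figure D4:**
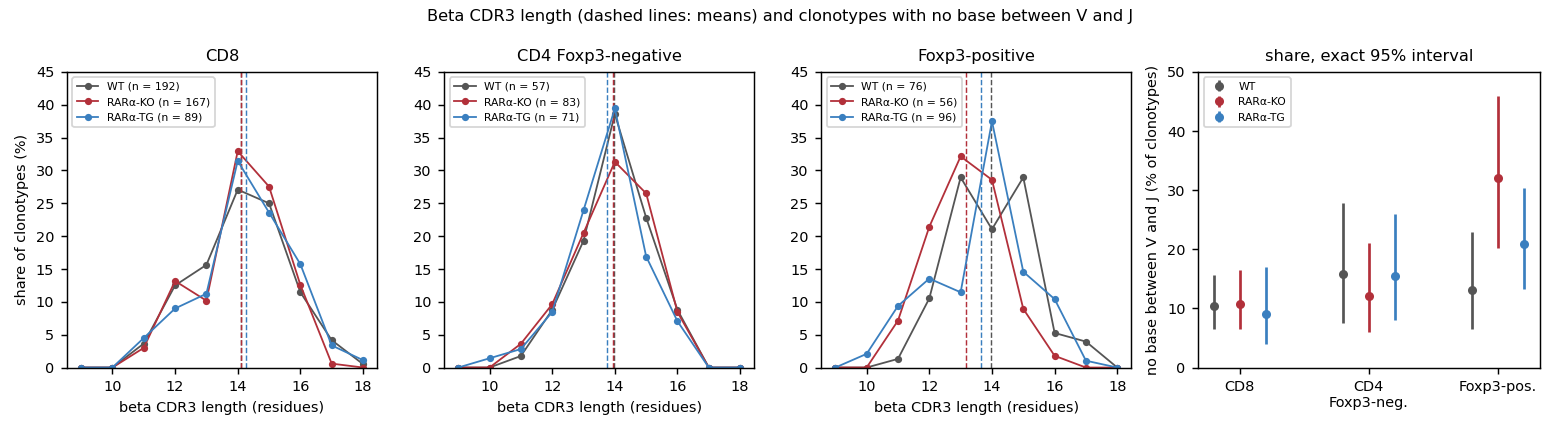
The first 3 panels plot the share of clonotypes (%, y axis) at each beta CDR3 length (residues, x axis) by genotype in CD8, CD4 Foxp3-negative and Foxp3-positive clonotypes, with means as dashed lines, and the last the share with no base between V and J, with exact 95% intervals. The CD8 means lay between 14.1 and 14.3, while Foxp3-positive means ran from 13.2 in RARα-KO to 14.0 in WT.

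Cells may also carry a beta rearrangement that makes no protein. In 291 cells 300 sequences that were not called productive had V and J names. Counted once per clonotype they made 162 rearrangements, 76 full length and 86 not. Whether the 86 were incomplete pieces of coding chains was not tested. For 6 of 20 V segments (30%) the share among the 162 was apart from that among productive chains, which were all full length. TRBV23 made up 21 of 162 nonproductive rearrangements (12.96%, interval 8.21 to 19.1) and 0.65% of productive clonotypes, TRBV31 also 21 (12.96%) against 4.79%, and TRBV10 14 (8.64%) against 2.76%. TRBV3 with 2 (1.23%) stood against 10.8%, TRBV5 with 2 (1.23%) against 7.32%, and TRBV13-2 with 3 (1.85%) against 11.02%. TRBV16 was not apart, at 13 (8.02%) against 10.2%. Nonproductive transcripts are known to be degraded, and how far each V segment escapes this was not measured here.

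**Figure D5:**
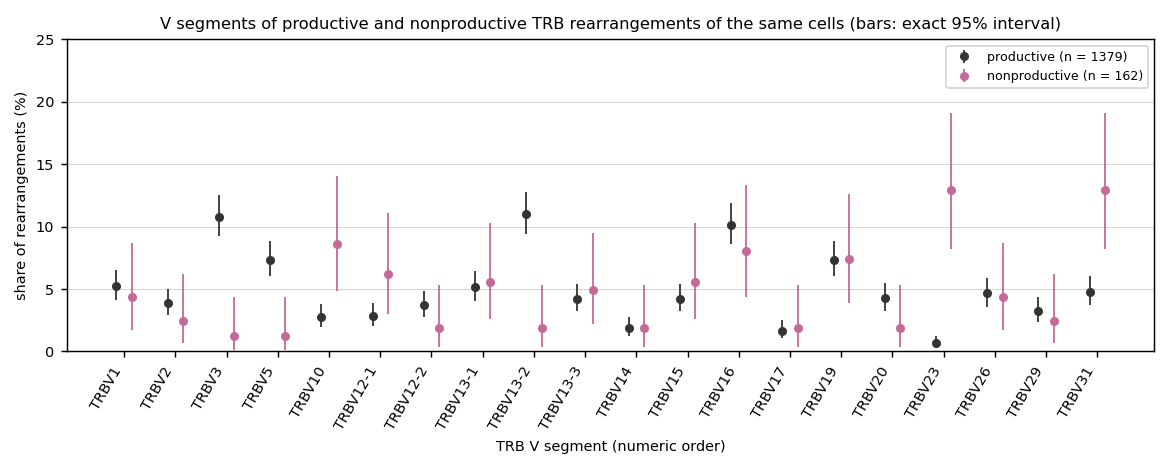
Share (%, y axis) of each TRB V segment (x axis) among 1379 productive clonotypes and 162 nonproductive rearrangements, 76 of them full length, with exact 95% intervals as bars. TRBV10, TRBV23 and TRBV31 lay above, and TRBV3, TRBV5 and TRBV13-2 below, their productive shares.

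Few beta chains were found in more than 1 genotype. Most clonotypes were a single cell, and a chain seen in 1 cell cannot be found in 2 genotypes. Of 1291 distinct V, J and CDR3 base sequences 10 were found in 2 genotypes and 0 in 3, and in 5 of the 10 all cells carried the same clonotype number. RARα-KO clone 3, for example, had 79 RARα-KO cells and 1 RARα-TG cell. The other shared sequences with most cells were as follows.
TRBV16 TRBJ1-4, 23 RARα-KO cells and 1 RARα-TG cell: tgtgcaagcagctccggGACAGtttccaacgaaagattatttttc
TRBV13-1 TRBJ1-1, 12 WT and 2 RARα-TG cells: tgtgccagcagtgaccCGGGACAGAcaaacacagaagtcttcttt
TRBV29 TRBJ1-5, 6 RARα-KO cells and 1 RARα-TG cell: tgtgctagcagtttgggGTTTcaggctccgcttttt
TRBV16 TRBJ1-1, 1 WT and 3 RARα-KO cells: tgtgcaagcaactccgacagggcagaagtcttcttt
In the last the stretches annotated as V and J left no base between them, which does not show that no base was added. It carried 2 alpha chains and 2 clonotype numbers, and lay in both CD8 and Foxp3-positive cells. Whether single cells of a second genotype arose from a wrong hashtag was not tested. At the protein level 26 of 1260 sequences were shared by genotypes, 2 of them by all 3, and 26 were encoded by 2 or more base sequences.

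Near-identical beta chains were then grouped, with the same V, J and length and at most 1 residue between neighbors. Of 1182 groups 51 held 2 or more protein sequences, and 21 of these were built from 3 or more base sequences. Each of the 21 was found in 2 or more genotypes. A group of more base sequences has more ways to span genotypes, and no share is given for the other groups. The count is therefore a description only. Of the 21 groups 4 held 20 or more cells. These 4 were picked after their values were seen.

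The largest group joined TRBV16 to TRBJ2-7 with a CDR3 of 14 residues. It held 137 cells under 16 clonotype numbers, 69 WT, 68 RARα-KO and 0 RARα-TG, of which 128 were CD8 and the other 9 fell in no gate. Version A was encoded by 4 base sequences and differed from versions B and C by R10P and R10L, with position 1 at the conserved cysteine. Capitals mark the bases that differed within the group.
TRBV16 TRBJ2-7 version A1: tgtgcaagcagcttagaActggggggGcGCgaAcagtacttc
TRBV16 TRBJ2-7 version A4: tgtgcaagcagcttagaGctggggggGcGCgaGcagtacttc
TRBV16 TRBJ2-7 version B1: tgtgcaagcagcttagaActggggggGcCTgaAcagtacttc
TRBV16 TRBJ2-7 version C1: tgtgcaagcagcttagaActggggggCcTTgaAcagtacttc
Version A1 was carried by 44 RARα-KO cells, A4 by 3 WT cells, B1 by 59 WT cells and C1 by 4 WT cells. No base sequence of the group was shared between genotypes. Of its 122 cells with an alpha chain 122 used TRAJ7, in 5 alpha V segments and 8 alpha base sequences, and 56 of them were of version B1. TRAJ7 was used by 163 of 2691 other cells (6.06%) and by 5 of 527 other TRBV16 cells (0.95%). Cells of a clonotype share their receptor, so these cells are not independent pairings. The group made up 62 of 80 TRBV16 CD8 cells in WT (77.5%) and 66 of 576 in RARα-KO (11.46%), so that most TRBV16 CD8 cells of RARα-KO carried other joints.

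A second group joined TRBV5 to TRBJ1-3 with 16 residues and held no CD8 cell. Its 35 cells were 9 WT, 8 RARα-KO and 18 RARα-TG, and the versions differed at a single residue, by Q5H, Q5P and Q5L from version A.
TRBV5 TRBJ1-3 version A1: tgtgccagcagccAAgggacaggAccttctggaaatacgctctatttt
TRBV5 TRBJ1-3 version B1: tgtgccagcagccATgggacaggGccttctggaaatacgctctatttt
TRBV5 TRBJ1-3 version C1: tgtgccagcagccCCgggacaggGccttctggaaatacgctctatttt
TRBV5 TRBJ1-3 version D1: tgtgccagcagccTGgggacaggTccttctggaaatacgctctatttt
Version A1 is the sequence of RARα-TG clone 3 and was carried by 17 RARα-TG cells, 9 of them with a Foxp3 UMI. B1 was carried by 8 WT cells, C1 by 8 RARα-KO cells and D1 by 1 RARα-TG cell, none with a Foxp3 UMI. TRAJ37 was paired with the group in 18 of 32 cells and in 3 of 3 genotypes, against 3.92% of other cells. The other 14 cells were all of version A1, which paired with TRAJ23 in 14 of its 17 cells.

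TRBV20 and TRBJ2-4 formed a group of 15 residues with 19 RARα-TG, 7 RARα-KO and 1 WT cell, again with 0 CD8 cells, and 7 protein sequences that were each encoded once. They differed at positions 4, 5 and 9.
TRBV20 TRBJ2-4 version A1: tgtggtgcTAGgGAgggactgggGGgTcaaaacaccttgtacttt
TRBV20 TRBJ2-4 version C1: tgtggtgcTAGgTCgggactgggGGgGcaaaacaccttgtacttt
TRBV20 TRBJ2-4 version F1: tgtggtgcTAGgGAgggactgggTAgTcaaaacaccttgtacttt
TRBV20 TRBJ2-4 version G1: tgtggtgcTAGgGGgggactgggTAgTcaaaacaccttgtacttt
Version A1, RARα-TG clone 1, had 19 cells, C1 (E5S) had 2 RARα-KO cells, F1 (G9S) had 1 RARα-KO cell, and G1 (E5G and G9S) was the WT cell. TRAJ34 was paired in 25 of 26 cells and in each genotype, against 2.37% of other cells. Of the 25 cells 19 were of version A1, with 1 alpha base sequence. The 4th group, TRBV5 with TRBJ2-3 at 15 residues, was nearly all RARα-KO, with 30 cells against 1 in WT, and paired with TRAJ7 in 29 of 30 cells, 28 of which carried a single beta base sequence. TRAJ7 was also used by 54 of 251 other TRBV5 cells (21.5%).

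Some productive beta chains carried no clonotype number and were outside all counts above. Among those in cells with a genotype TRBV16 made up 478 of 576 in RARα-KO (83.0%), 47 of 123 in WT (38.2%) and 10 of 60 in RARα-TG (16.7%). These chains came from 247, 86 and 51 cells. No interval is given, since cells of a clonotype share their receptor. In barcodes below the minimum of 500 gene UMIs TRBV16 made up 361 of 1146 such chains (31.5%). Cells without a clonotype number that had such a chain of 3 or more UMIs numbered 222 with RARα-KO, 50 with WT and 13 with RARα-TG hashtags, with medians of 22, 10 and 8 UMIs. Of these cells 199, 29 and 6 carried the V, J and CDR3 sequence of a numbered cell. With them included TRBV16 was carried by 746 of 1175 RARα-KO CD8 cells (63.5%).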

How the data were processed

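Per the methods and labels, the authors sequenced 1 pooled library made with the 10x Genomics 5′ kit (gene expression, TCR and hashtags) and processed it with Cell Ranger 6.1.0 on mm10. A header of the count matrix names another major version. The deposited matrix held raw UMI counts of 32285 genes in 730308 barcodes, and the deposited TCR annotation gave V, D, J and constant gene names, CDR3 sequences, UMI counts and clonotype numbers for each assembled sequence. Barcodes of 500 or more gene UMIs were kept as cells (5600, median 4808 UMIs). Hashtag counts were assigned with HTODemux in Seurat 5.3.0 (R 4.3.3, quantile 0.99), giving 1930 WT, 2109 RARα-KO and 896 RARα-TG cells, 427 doublets and 238 cells without hashtag, and the last 2 were left out. Of 7042 TRB sequences 3698 had a clonotype number, in 3548 barcodes, with a median of 10 UMIs (1 to 87) per sequence in the cells used. No other doublet caller was run. A clonotype was counted once per genotype and lineage by its most frequent beta chain.

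Shares and exact intervals were computed with Python 3.11.15 and scipy 1.17.1, and the steps were tested on simulated data. Segments named are the 5 V segments with most clonotypes and those apart in a comparison, clonotypes named are the 3 with most cells per genotype and up to 5 shared sequences, and segments named beyond this were chosen after their values were seen. The shares of CDR3 of 12 or fewer residues and of joints without a base between V and J were also chosen after the data were seen. Members, gates and lists were chosen with earlier results of these data known. RefSeq coordinates matched 33 of 33 segments by symbol. Alternatives on cell minimum, hashtag calling, gates, sequences and clonotype size were tried. An item is not reported here.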

Additional observations from a re-analysis of the deposited data

Results flagged for a closer look

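Beta chains without a clonotype number stood outside the main counts, and TRBV16 made up 83.0% of them in RARα-KO cells against 38.2% in WT and 16.7% in RARα-TG cells, and 31.5% in barcodes below the UMI minimum for cells. In the gene expression library Trbv24 had 104 UMIs in 66 cells with a TRB sequence, and led the Trbv genes in 4 of them, although no assembled beta chain was named TRBV24. The RARα-KO minus WT difference in the TRBV3 share of clonotypes was 5.34 percentage points in CD8 and -13.1 in Foxp3-positive clonotypes, with opposite signs, and the difference between lineages was not tested.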

How the results depend on the processing

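TRBV16 in CD8 clonotypes was higher in RARα-KO than in WT under all 13 alternatives (8.02 to 35.0 percentage points) and apart in 12 of them, with the exception of clonotypes of 1 cell. Genotype comparisons of V segments with intervals apart fell from 2 to 1 with clonotypes of 1 cell only and to 1 with clonotypes of 2 or more cells only. For V segments between lineages the count fell from 9 to 3 in WT alone, 4 in RARα-KO alone and 1 in RARα-TG alone, and ran from 5 (without RARα-TG) to 6 (without WT or RARα-KO) when a genotype was left out. Signs turned in 2 cases, TRBV16 in CD8 minus Foxp3-positive in WT alone (-0.14 points) and TRBV3 in the same comparison in RARα-KO alone (3.62 points). Counted as distinct sequences, TRBV3, TRBV16 and TRBV26 were no longer apart between CD8 and Foxp3-positive. J comparisons apart ran from 0 to 1 when a genotype was left out, with 1 without RARα-KO. The shares of short CDR3 and of joints without a base between V and J were apart in 1 of 24 comparisons in all, in 2 with sequences of 3 or more UMIs, in 2 with a Foxp3 gate that did not need Cd4, and in 0 to 2 when a genotype was left out (0 without RARα-KO, 2 without WT). With beta chains lacking a clonotype number the TRBV16 share of RARα-KO CD8 cells rose from 58.7% to 63.5%, and sequences in 2 genotypes from 10 to 19. That alternative, the deposited V names, the wider Foxp3 gate and the removal of minority hashtags were chosen after seeing the data. The causes of these changes were not tested, apart from the smaller numbers of clonotypes where groups were split. No paired analysis was possible because each genotype was 1 sample and the labels give no replicate numbers that the genotypes share.

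The design sets the main limits. Each genotype was 1 sample, so no value carries the spread between mice, and intervals cover counting error only. RARα-TG had 89 CD8 clonotypes, against 192 and 167, and a count of 0 there allows a share of up to 3.37% by a limit of 3 counts and 4.06% by the exact interval. Lineages rest on single UMIs of Cd8a, Cd4 and Foxp3, and 811 of 3287 cells fell in no gate, among them cells with a Foxp3 UMI. A beta chain was found under more than 1 clonotype number in several cases.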
